A study of Homo sapiens with 9 samples.

Results

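S-adenosylmethionine is the methyl donor that m6A methyltransferases use, and 6 genes of its supply were followed here in nuclear and cytoplasmic RNA of HEK293 cells. The 6 genes were taken by name, with all 40 of their transcripts among 183122 transcripts of 56349 genes. MAT2A encodes the catalytic subunit of methionine adenosyltransferase, which makes S-adenosylmethionine from methionine and ATP, and MAT2B encodes its regulatory subunit. METTL16 encodes an m6A methyltransferase that acts on MAT2A mRNA, AHCY and AHCYL1 encode the hydrolase of S-adenosylhomocysteine and a relative of it, and MTR encodes methionine synthase. They were listed by symbol, with no threshold on a measured value.

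HEK293 is an established human embryonic kidney line. Cells were transfected with control siRNA or with siRNAs against both WTAP and KIAA1429 (gene symbol VIRMA, the protein also called Virilizer), subunits of the m6A methyltransferase complex, and were separated into nuclei and cytoplasm. The files analysed held 3 control nuclear, 3 RNAi nuclear, 2 RNAi cytoplasmic (replicates 1 and 2) and 1 control cytoplasmic sample (replicate 2). Nothing in the labels says that replicates came from separate cultures, so that p-values measure the spread between these samples, which may be technical, and every comparison with control cytoplasm rests on 1 library. Levels are shares of the RNA of a fraction, and a lower share and less of that RNA per cell could not be told apart.

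In mammalian cells the MAT2A transcript is known as a sensor of S-adenosylmethionine. METTL16 binds hairpins in its 3′ UTR, and when the methyl donor is scarce METTL16 stays bound and splicing of the last intron is favoured, whereas MAT2A RNA that keeps this intron stays in the nucleus or is degraded. S-adenosylhomocysteine, left after each methyl transfer, inhibits methyltransferases and is removed by AHCY, and MTR returns homocysteine to methionine.

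The sequences that METTL16 is known to read are shown first because the question for MAT2A was whether its last intron, next to them, behaved differently after the RNAi. MAT2A lies on the plus strand of GRCh37 at chr2:85766291-85772404, and its main coding transcript, ENST00000306434, has 9 exons. The last exon carries the end of the coding sequence and the whole 3′ UTR of 1509 nt. Intron 8, the last one, spans chr2:85770158-85770792 (635 nt). Its ends are given 5′ to 3′ with 10 exonic bases in capitals and 15 intronic bases in lower case.
Intron 8, 5′ splice site, chr2:85770148-85770172: TCATTGTCAGgtaaagatggtaaag
Intron 8, 3′ splice site, chr2:85770778-85770802: acttgtatattccagGGATCTGGAT

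The 3′ UTR was searched on the RNA strand for TACAGAGAA and TACAGAAAA, the DNA letters of the 9-base METTL16 motif and of its single variant form. It held 6 matches, and its reverse strand held 0. Each is printed as 29 bases of GRCh37, plus strand, with the motif in capitals.
Site 1, chr2:85770925-85770953: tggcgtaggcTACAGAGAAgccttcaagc
Site 2, chr2:85771712-85771740: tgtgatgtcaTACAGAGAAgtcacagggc
Site 3, chr2:85771897-85771925: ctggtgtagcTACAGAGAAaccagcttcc
Site 4, chr2:85772012-85772040: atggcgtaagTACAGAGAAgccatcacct
Site 5, chr2:85772127-85772155: caaggtgtccTACAGAAAAaccttgggtt
Site 6, chr2:85772235-85772263: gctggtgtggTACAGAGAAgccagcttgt

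Site 1 began 40 nt after the stop codon and site 6 began 1350 nt after it. Of the 3′ UTRs of 11995 protein-coding genes, each read from its most abundant coding transcript, 3.9% held at least 1 match, 0.2% held at least 2, and only that of MAT2A held 6. Among the 1636 of these within 0.8 to 1.25 times the length of the MAT2A 3′ UTR the share with at least 1 match was 3.7%. On the reverse strand 5.8% of the 11995 held a match. The bases just 3′ of the motif could pair (Watson-Crick or G-U) with a run of bases 5′ of it over 4 to 6 positions at the 6 MAT2A sites, as with ctggt and accag at site 3, and 5 of 6 sites had a run of at least 5. Of 491 matches in other genes, 5.5% had a run of at least 5. The 3′ UTRs of MAT2B, METTL16, AHCY, AHCYL1 and MTR held none of the motifs. METTL16 was already known to bind this 3′ UTR when the motif was chosen, so that these counts are a description and not a test. They are matches of letters and not a measurement of binding or methylation.

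**Figure D1:**
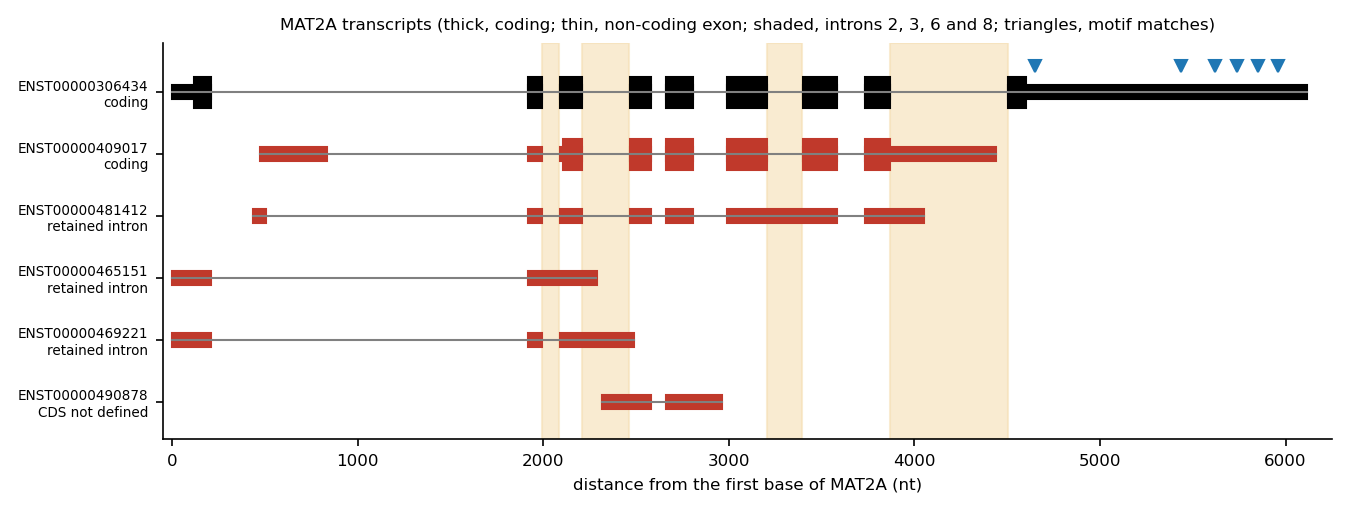
The 6 MAT2A transcripts by distance in nt from the first base of the gene, with coding exons thick, other exons thin, introns 2, 3, 6 and 8 shaded and the 6 motif matches as triangles. All 6 matches lie in the last exon of the main coding transcript, and only ENST00000409017 and ENST00000481412 read into intron 8.

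Total estimated counts per sample were between 11627403 and 19036141, and 16181 genes were tested. A gene needed 10 or more estimated counts in 3 or more samples to be tested, and all 6 members did. Levels were compared between samples as CPM, counts scaled to the library total with TMM, and between genes as TPM, which corrects for transcript length. A gene was called where the log2 fold change was beyond 0.5 and the FDR under 0.1 (edgeR quasi-likelihood test, Benjamini-Hochberg over all tested genes). The siRNA targets were lower in the RNAi samples. WTAP was at 23.1 to 27.6 CPM in control nuclei and 12.3 to 15.6 CPM in RNAi nuclei, and at 37.5 CPM in control cytoplasm and 10.8 and 11.9 CPM in RNAi cytoplasm. VIRMA was at 13.2 to 19.9 CPM in control nuclei and 5.53 to 9.19 CPM in RNAi nuclei, and at 17.4 CPM in control cytoplasm and 4.09 and 4.22 CPM in RNAi cytoplasm. MAT1A, the liver isozyme, did not pass the filter on low counts, and neither did 7 of the other 9 markers of liver, blood and fibroblasts, while 5 of the 6 HEK293 markers measured did. The summed level of 5 nuclear RNAs, MALAT1 and NEAT1 among them, was 32.1 to 38.8 TPM in nuclei, 4.6 TPM in control cytoplasm, and 1.9 and 2.1 TPM in RNAi cytoplasm. This difference between the cytoplasmic libraries stands beside every ratio below, and its part in those results was not tested. None of the 5 mitochondrial RNAs taken as cytoplasmic markers was called lower in nuclei, and 2 (MT-CO1 and MT-CYB) were called higher there. In RNAi cells MT-ND1 and MT-CO2 had lower mean CPM in nuclei than in cytoplasm, and the others had higher.

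Per length, AHCY had the highest level of the 6 genes in 9 of 9 samples, from 149 to 296 TPM. MAT2A followed with 75.1 to 155 TPM and AHCYL1 with 20.6 to 34.5 TPM. METTL16 (8.68 to 16.7 TPM), MTR (5.91 to 12.1 TPM) and MAT2B (4.08 to 13.8 TPM) overlapped in range, so that their order was not fixed beyond the spread between samples.

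**Figure D2:**
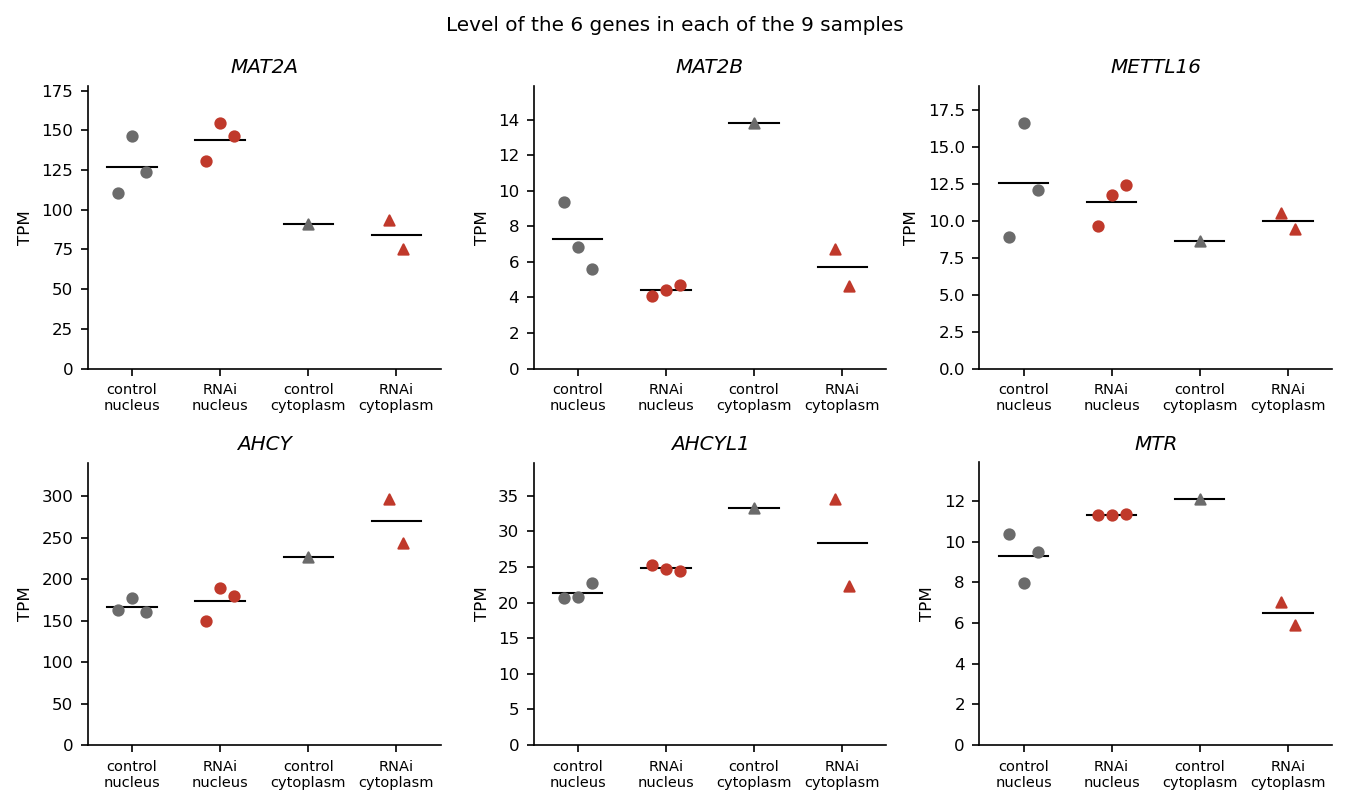
Level in TPM of the 6 genes in each sample, for control (grey) and RNAi (red) nuclei (circles) and cytoplasm (triangles), with a line at the group mean. MAT2B was highest in the control cytoplasmic sample at 13.8 TPM, and MTR was lowest in the 2 RNAi cytoplasmic samples at 7.02 and 5.91 TPM.

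The first question for each gene was where its RNA was found. MAT2B, AHCY and AHCYL1 were lower in nuclei than in cytoplasm in control and in RNAi cells. In control cells the log2 nuclear/cytoplasmic difference was -1.01 for MAT2B (SE 0.18, FDR 0.00125), -0.52 for AHCY (SE 0.11, FDR 0.00411) and -0.57 for AHCYL1 (SE 0.14, FDR 0.007), by edgeR's quasi-likelihood test, and these 3 of 6 members were called beside 50.8% of all genes (28% higher and 22.7% lower in nuclei). In RNAi cells the differences were -0.65, -1.02 and -0.71 (FDR 0.00524, 1.22e-05 and 0.000412), and with MTR 4 of 6 members were called, 1 higher and 3 lower, beside 57.8% of all genes (32.9% higher and 24.9% lower). These shares lie near the background. With library size alone in place of TMM, MAT2B and AHCYL1 in RNAi cells fell under the fold threshold (log2 -0.38 and -0.45), and in limma on TPM both calls were lost (-0.30 and -0.16), as was that of AHCY in control cells (-0.45, FDR 0.132). AHCY in control cells fell under the fold threshold without control nuclear replicate 2 (log2 -0.48), as did MAT2B in RNAi cells without RNAi cytoplasmic replicate 1 (log2 -0.47).

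MAT2A and METTL16 were not called in this comparison. The log2 nuclear/cytoplasmic difference of MAT2A was 0.23 in control cells (95% confidence interval -0.02 to 0.48) and 0.21 in RNAi cells (0.01 to 0.40, edgeR FDR 0.0624). In limma on TPM, MAT2A in RNAi cells was called higher in nuclei (0.77, FDR 0.00413). That of METTL16 was -0.03 in control cells (-0.39 to 0.33) and -0.37 in RNAi cells (-0.66 to -0.08, FDR 0.03), under the fold threshold. MTR stood at -0.30 in control cells (FDR 0.218) and at 0.60 in RNAi cells (SE 0.16, FDR 0.00755), by the same edgeR test, and the latter was not called with a transcript length offset (log2 0.38).

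The gene that makes S-adenosylmethionine did not pass the test for a response to the RNAi. MAT2A was at 289, 312.5 and 296 CPM in control nuclei and at 319, 331 and 335 CPM in RNAi nuclei. It was at 255 CPM in control cytoplasm and at 293 and 276 CPM in RNAi cytoplasm. In CPM every RNAi sample was above every control sample in both fractions, by a small amount. The log2 fold change was 0.14 in nuclei (95% confidence interval -0.04 to 0.31, FDR 0.357) and 0.16 in cytoplasm (-0.10 to 0.42, FDR 0.383). The change of the nuclear/cytoplasmic ratio was -0.02 (-0.34 to 0.29, FDR 0.942), all by edgeR's quasi-likelihood test. The upper end of the nuclear interval is under the fold threshold of 0.5. In TPM the nuclear groups overlapped, at 111, 146.5 and 123.5 TPM against 131, 155 and 146.5 TPM. The control cytoplasm, at 90.8 TPM, lay between the RNAi values of 93.5 and 75.1 TPM.

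METTL16, which writes m6A outside the WTAP complex, did not pass either. It was at 41.2, 54.6 and 49.6 CPM in control nuclei and at 45.4, 51.0 and 53.0 CPM in RNAi nuclei, and the groups overlapped. In cytoplasm it was at 49.4 CPM in the control and at 63.2 and 65.5 CPM after RNAi, above the control in both. The log2 fold change was 0.04 in nuclei (-0.22 to 0.30) and 0.38 in cytoplasm (-0.01 to 0.77, edgeR FDR 0.157). METTL16 lies on the minus strand of GRCh37 at chr17:2308856-2415185. Its main transcript ENST00000263092 was at 5.78 to 8.18 TPM in nuclei, 7.43 TPM in control cytoplasm, and 8.85 and 7.60 TPM in RNAi cytoplasm. In RNAi cells this transcript was called lower in nuclei than in cytoplasm (log2 -0.60, edgeR FDR 0.0297), beside 43.6% of all transcripts called. In control cells it was not (log2 -0.12, edgeR FDR 0.731). The sample at 5.78 TPM, RNAi nuclear replicate 2, had 3.19 TPM of another METTL16 transcript, ENST00000571669.

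MAT2B, the regulatory subunit, was the member lower after RNAi in both fractions. It was at 15.7, 13.8 and 12.3 CPM in control nuclei and at 8.74, 8.87 and 9.62 CPM in RNAi nuclei. The control cytoplasm held 28.2 CPM and the RNAi cytoplasm 15.7 and 12.6 CPM. The groups did not overlap in either fraction. The log2 fold change was -0.62 in nuclei (SE 0.14, FDR 0.0474) and -0.99 in cytoplasm (SE 0.20, FDR 0.00742), by edgeR's quasi-likelihood test. MAT2B was the only 1 of 6 members called in nuclei, beside 4.89% of all genes (2.47% higher and 2.42% lower). It rested on 96 to 228 estimated counts per nuclear sample. The nuclear call was lost without control nuclear replicate 3 or without any 1 of the 3 RNAi nuclear replicates (edgeR FDR 0.116 to 0.16), with the fold change between -0.71 and -0.59. It was also lost with library size alone (FDR 0.107), with a transcript length offset (0.111) and in limma on TPM (0.232). The cytoplasmic call held in all 16 alternatives. Its nuclear/cytoplasmic ratio changed by 0.37 on the log2 scale (-0.17 to 0.91, FDR 0.356), so that a difference between the fractions was not shown. MAT2B lies on the plus strand of GRCh37 at chr5:162930120-162946564. Its main transcript ENST00000321757 was at 4.35, 4.16 and 3.28 TPM in control nuclei, 2.14, 1.85 and 3.11 TPM in RNAi nuclei, 12.5 TPM in control cytoplasm, and 5.96 and 4.01 TPM in RNAi cytoplasm. This transcript was low in the RNAi samples of both fractions but was not called in either (FDR 0.393 and 0.218, edgeR over all transcripts).

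AHCY, the hydrolase, was higher in cytoplasm after RNAi. It was at 457 CPM in control cytoplasm and at 675 and 650 CPM in RNAi cytoplasm, both above the control. In nuclei it was at 335, 305 and 315 CPM in controls and at 306, 339 and 336.5 CPM after RNAi, with the groups overlapping. The cytoplasmic log2 fold change was 0.54 (SE 0.13, FDR 0.0159) and the nuclear one 0.04 (-0.15 to 0.22), by the same edgeR test. The cytoplasmic value lies just past the fold threshold. It was not called with library size alone (0.28, FDR 0.37) or in limma on TPM (0.24, FDR 0.639), and it fell to 0.48 without control nuclear replicate 1 or 3. The change of the nuclear/cytoplasmic ratio was -0.50 (SE 0.15, edgeR FDR 0.0577), just under the fold threshold, and it was called without control nuclear replicate 2 (-0.53), without RNAi nuclear replicate 2 (-0.53) and with the length offset (-0.52). AHCY lies on the minus strand of GRCh37 at chr20:32868074-32899608, and its main transcript ENST00000217426 was at 144 to 182 TPM in nuclei, 216 TPM in control cytoplasm, and 285 and 236 TPM in RNAi cytoplasm.

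AHCYL1, whose protein is best known as a regulator of the inositol trisphosphate receptor, showed no called difference between the siRNAs. It lies on the plus strand of GRCh37 at chr1:110527387-110566364. It was at 59.9, 59.7 and 55.3 CPM in control nuclei and at 53.2, 47.6 and 50.6 CPM in RNAi nuclei, and the groups did not overlap. The control cytoplasm, at 86.8 CPM, lay between the RNAi values of 91.3 and 73.7 CPM. The log2 fold change was -0.21 in nuclei (-0.44 to 0.02, edgeR FDR 0.283) and -0.07 in cytoplasm (-0.41 to 0.27). In TPM the nuclear direction turned, with 20.6 to 22.7 TPM in controls and 24.5 to 25.2 TPM after RNAi, while the 1798-nt transcript ENST00000393614 was at 0 to 1.07 TPM in control nuclei and 1.08 to 4.91 TPM in RNAi nuclei.

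MTR, methionine synthase, was the member whose nuclear/cytoplasmic ratio rose. It lies on the plus strand of GRCh37 at chr1:236958560-237084578. It was at 107, 73.1 and 93.2 CPM in control nuclei and at 103.5, 81.9 and 93.1 CPM in RNAi nuclei. In CPM the nuclear groups overlapped almost fully. In TPM they did not overlap, and MTR was at 10.37, 7.98 and 9.47 TPM in control nuclei and at 11.31, 11.29 and 11.34 TPM in RNAi nuclei. In cytoplasm it was at 112 CPM in the control and at 61.2 and 61.1 CPM after RNAi, close to each other and far below the control. The log2 fold change was 0.03 in nuclei (-0.28 to 0.34) and -0.87 in cytoplasm (SE 0.20, FDR 0.0147). The nuclear/cytoplasmic ratio rose by 0.90 on the log2 scale (SE 0.25, FDR 0.0415), by edgeR's quasi-likelihood test. In cytoplasm MAT2B, AHCY and MTR, 3 of 6 members, were called beside 24.6% of all genes (10.4% higher and 14.2% lower), and in the ratio MTR, 1 of 6, beside 18.2% (10.4% higher and 7.87% lower). The MTR calls in cytoplasm and in the ratio held in all 16 alternatives of each, with the ratio between 0.76 and 1.20. The single control cytoplasmic library could not be left out of either.

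**Figure D3:**
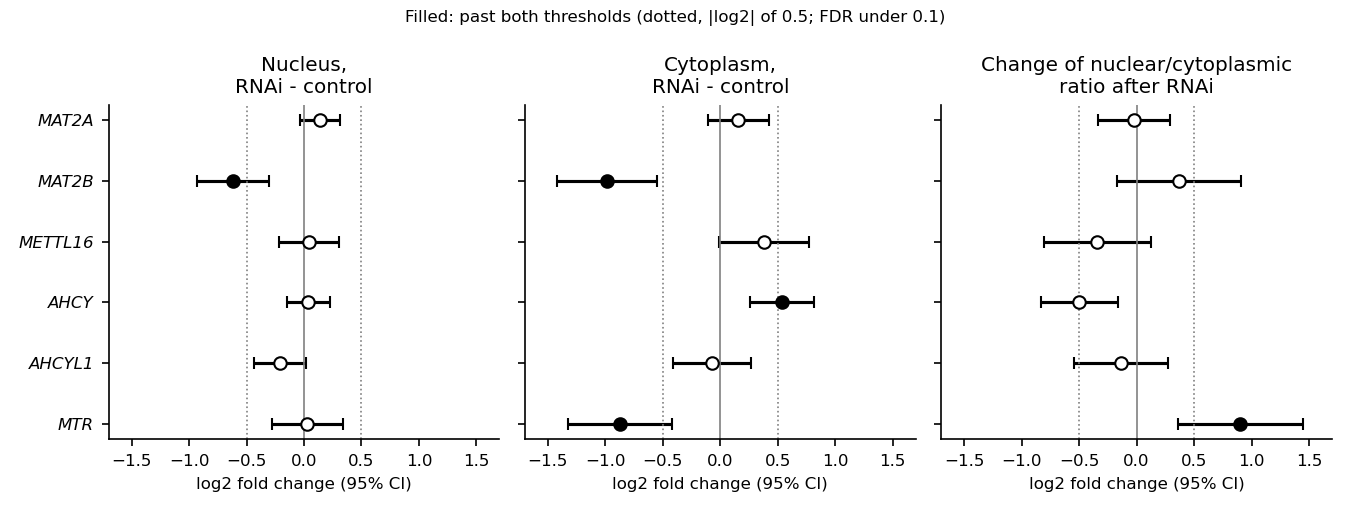
Log2 fold change of each gene with its 95% confidence interval in nuclei, in cytoplasm and for the nuclear/cytoplasmic ratio, with dotted lines at a log2 of 0.5 in either direction and filled points past both thresholds. MAT2A lies at 0.14, 0.16 and -0.02 with intervals that include 0, MAT2B is lower in both fractions, and MTR is lower in cytoplasm and higher in the ratio.

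The last intron of MAT2A was then examined through the transcripts that salmon quantified. ENST00000306434 was at 92.2, 121 and 102 TPM in control nuclei, at 107, 125 and 123 TPM in RNAi nuclei, at 90.3 TPM in control cytoplasm and at 92.2 and 74.8 TPM in RNAi cytoplasm. ENST00000409017 is annotated as coding, but its last exon reads through the 5′ splice site shown above. That exon takes in 574 of the 635 bases of intron 8 (90.4%), with no part of the 3′ UTR that holds the motifs. The transcript begins inside intron 1, with 359 of the 1704 bases of that intron (21.1%). It ends inside intron 8 without joining the last exon of ENST00000306434. Reads from either intron could enter its estimate, so that it is not a measure of the last intron alone. Of the 3 transcripts classed as retained intron, ENST00000481412 holds intron 6 whole and 184 bases of intron 8, ENST00000465151 holds intron 2, and ENST00000469221 holds intron 3.

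The last-intron transcript was found in nuclei and hardly in cytoplasm. ENST00000409017 was at 4.29, 7.17 and 4.80 TPM in control nuclei and at 4.74, 6.46 and 4.64 TPM in RNAi nuclei. It was at 0.387 TPM in control cytoplasm and at 0.212 and 0.156 TPM in RNAi cytoplasm, where it rested on 3.4 to 11.8 estimated counts. The fractions were far apart and the siRNA groups overlapped in nuclei. The log2 nuclear/cytoplasmic difference of ENST00000409017 was 3.64 in control cells (SE 0.43) and 4.47 in RNAi cells (SE 0.34), in edgeR's fit over 44726 transcripts. The transcript passed the filter on low counts through the nuclear samples in which it is high, so that these values are a description. Between the siRNAs ENST00000409017 differed by -0.08 in nuclei (edgeR FDR 0.965). Its share of MAT2A TPM was 4.22% ± 0.58 (SD, n = 3) in control nuclei and 3.65% ± 0.50 (SD, n = 3) in RNAi nuclei (exact two-sided permutation test, p = 0.4, with 0.1 the lowest p that 3 against 3 allows).

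The retained-intron transcripts of MAT2A showed the same split between fractions. Their summed share of MAT2A TPM was 9.33%, 9.22% and 10.8% in control nuclei and 12.1%, 11.8% and 10.5% in RNAi nuclei. It was 0.106% in control cytoplasm and 1.14% and 0.184% in RNAi cytoplasm, on 2.1 to 6 estimated counts, where 3 counts are taken as the limit of detection. The nuclear groups overlapped, since RNAi nuclear replicate 3 lay under control nuclear replicate 3. The means were 9.80% ± 0.91 (SD, n = 3) and 11.5% ± 0.80 (SD, n = 3), a difference of 1.66 percentage points (exact two-sided permutation test, p = 0.2). As a share of estimated counts the difference was 0.334 percentage points (exact permutation test, p = 0.3).

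The log2 ratio of retained-intron to coding TPM of MAT2A, with 0.5 TPM added to both, differed by 0.24 between RNAi and control nuclei (SE 0.30, limma FDR 0.847). The median of 6736 genes with both kinds of transcript was 0.13 in this comparison, 61% of these genes were above 0, and 39.3% had a larger value than MAT2A. Only 0.0297% of them passed an FDR of 0.1, and 681 had an unadjusted p under 0.05. Between nucleus and cytoplasm of RNAi cells the ratio of MAT2A differed by 3.52 (SE 0.34, limma FDR 5.31e-05), against a median of 0.87 over all genes, of which 52% passed and 5.03% had a larger value. That size depends on the TPM added, and was 4.41 with 0.1 TPM and 2.95 with 1 TPM. With ENST00000409017 counted as intron-containing, a choice made after seeing the data, the values were 0.11 between the siRNAs in nuclei and 3.72 between the fractions. In all samples together, transcripts classed as retained intron held 5.12% to 7.78% of TPM, with nuclear and cytoplasmic samples overlapping.

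**Figure D4:**
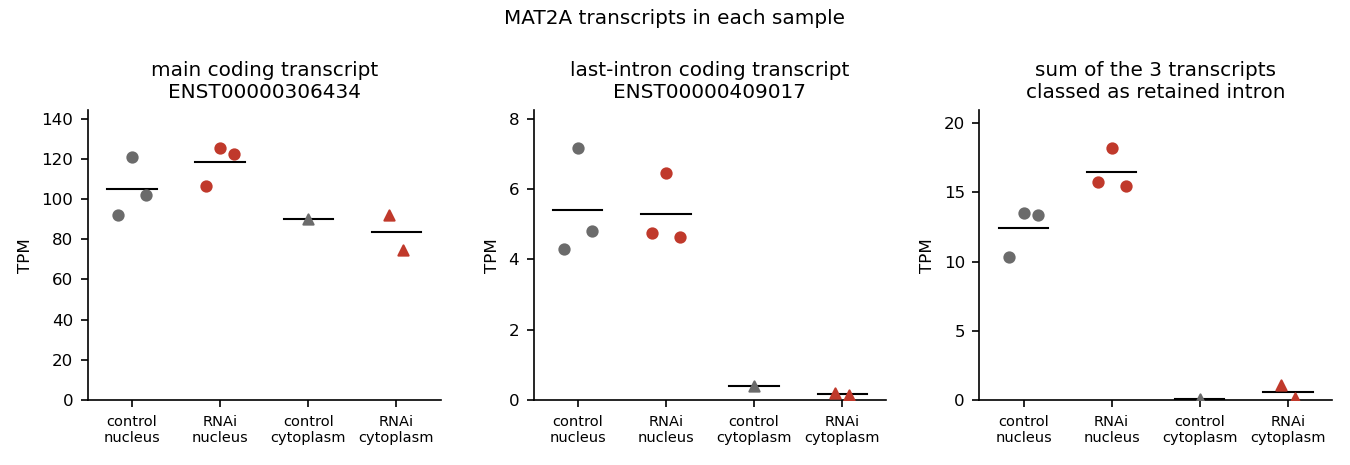
TPM of the main coding transcript of MAT2A, of ENST00000409017 and of the sum of the 3 retained-intron transcripts in each sample, for control (grey) and RNAi (red) nuclei (circles) and cytoplasm (triangles), with a line at the group mean. The main transcript is found in both fractions, and the others are near 0 in cytoplasm.

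Of the 40 transcripts of the 6 genes, 26 passed the filter on low counts. None of the 26 was called between RNAi and control nuclei, as none of all 44726 transcripts was (0%), with 4 of the 26 and 4416 of all at an unadjusted p under 0.05 in edgeR. Between nucleus and cytoplasm 15 of 26 were called in RNAi cells, beside 43.6% of all transcripts, and 13 of 26 in control cells, beside 32%. Transcripts at or near 0 in cytoplasm, the minor ones of MAT2A among them, passed the filter only through the nuclear samples in which they are high, so that these counts are a description. These p-values leave out the uncertainty with which salmon divides shared reads.

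Retained-intron transcripts of other members differed in where they lay. ENST00000523606 of MAT2B was at 0.71 to 1.38 TPM in the 6 nuclear samples and at 0 in the 3 cytoplasmic ones. ENST00000470570 of MTR was at 1.39, 0.60 and 1.13 TPM in control nuclei and at 1.75, 2.64 and 2.04 TPM in RNAi nuclei. These nuclear groups did not overlap, but the transcript was not called between them (log2 0.90, edgeR FDR 0.679). In cytoplasm it was at 0.16 TPM in the control and at 0.06 and 0 TPM after RNAi. Those of AHCY were found in both fractions. ENST00000606061 of AHCY was at 3.00 to 4.46 TPM in nuclei, at 1.41 TPM in control cytoplasm and at 3.14 and 2.35 TPM in RNAi cytoplasm, and was called between the fractions in control cells (log2 1.13, edgeR FDR 0.0725) but not in RNAi cells (0.15, FDR 0.711). ENST00000480653 of AHCY was called in neither. The log2 nuclear/cytoplasmic difference of the retained-intron to coding ratio in RNAi cells was 2.42 for MAT2B, 1.83 for MTR and 1.31 for AHCY (limma FDR 0.000148, 0.00119 and 0.00411), and 0.47 for METTL16 (FDR 0.443). Between RNAi and control nuclei this ratio differed by 0.65 for MTR (limma unadjusted p 0.0436, FDR 0.488), and 12.7% of genes had a larger value. It differed by 0.42 for MAT2B, -0.145 for AHCY and -0.21 for METTL16 (limma FDR 0.624, 0.885 and 0.902). AHCYL1 has no retained-intron transcript in the annotation.

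For MTR, the lower cytoplasmic level lay in 1 transcript. ENST00000366577, with a 3′ UTR of 6337 nt, was at 8.20, 7.38 and 8.05 TPM in control nuclei and 8.10, 6.45 and 7.69 TPM in RNAi nuclei. It was at 8.61 TPM in control cytoplasm and at 3.20 and 2.92 TPM in RNAi cytoplasm. The other 2 coding transcripts, with 3′ UTRs of 2774 and 490 nt, summed to 3.31 TPM in control cytoplasm and to 3.77 and 2.99 TPM in RNAi cytoplasm. The long form was low in both RNAi cytoplasmic samples, while the sum of the shorter forms lay on both sides of the control value. The log2 fold change of ENST00000366577 in cytoplasm was -1.29 (SE 0.24, FDR 0.0684, edgeR over all transcripts). It was the only 1 of 26 member transcripts called there, beside 2.84% of all transcripts. The call was lost without any 1 of control nuclear replicate 3, RNAi nuclear replicates 1 and 3 and RNAi cytoplasmic replicates 1 and 2. In nuclei the share of MTR TPM in the long form was 79%, 92.4% and 84.9% in controls and 71.6%, 57.1% and 67.8% after RNAi, and these did not overlap. For the change of the nuclear/cytoplasmic ratio no member transcript was called (1.03% of all were), with 3 of 26 and 5878 of all at an unadjusted p under 0.05 in edgeR. Whether the shorter and longer forms differed in their response was not tested.

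**Figure D5:**
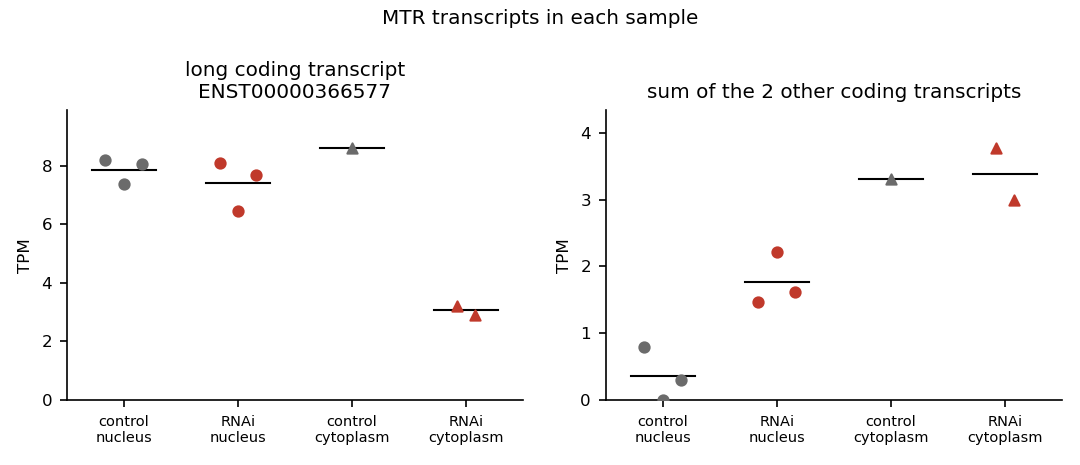
TPM of the long coding transcript of MTR and of the sum of its other 2 coding transcripts in each sample, for control (grey) and RNAi (red) nuclei (circles) and cytoplasm (triangles), with a line at the group mean. The long form falls from 8.61 TPM in control cytoplasm to 3.20 and 2.92 TPM in RNAi cytoplasm.

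The other genes of the pathway were read from lists. Of the methionine cycle, 13 of 16 genes were tested. The untested ones were MAT1A, BHMT and BHMT2. In nuclei MAT2B alone was called, beside 4.89% of all genes. The list median was -0.21 on the log2 scale, against -0.001 over all genes. In cytoplasm 3 of 13 were called higher (AHCY, CBS and MMACHC) and 3 lower (MAT2B, MTR and MMADHC), beside 10.4% higher and 14.2% lower over all genes, with a median of -0.02. With library size alone 0 were called higher and 4 lower (median -0.26), so that the calls of AHCY, CBS and MMACHC depended on the scaling. MMACHC and MMADHC process the cobalamin that MTR needs, and moved in opposite directions, by 0.72 and -0.78 (edgeR FDR 0.0056 and 0.0101). In the ratio MTR was higher and CBS, which draws homocysteine off into cysteine synthesis, was lower (log2 -0.71, edgeR FDR 0.035). Over all genes 10.4% were called higher and 7.87% lower in the ratio. CBS was not called with library size alone, with the length offset or in limma on TPM.

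Among 7 genes that bind or process MAT2A RNA, METTL16 included, 0 were called in nuclei in edgeR, beside 4.89% of all genes. Of the 7, 0 had an unadjusted p under 0.05 in edgeR, and 0 were called in DESeq2 or limma. NUDT21, a subunit of cleavage factor I, and YTHDC1, a nuclear m6A reader, were lower in RNAi cytoplasm (log2 -0.75 and -0.51, edgeR FDR 0.00639 and 0.036) and higher in the ratio (0.53 and 0.58, FDR 0.0795 and 0.0606). These 2 of 7 stand beside 14.2% of all genes called lower in cytoplasm and 10.4% called higher in the ratio. YTHDC1 in cytoplasm was not called in DESeq2, NUDT21 in the ratio was not called with the length offset, and neither was called in the ratio in limma on TPM. CPSF6, CPSF7, ELAVL1 and HNRNPD were not called between the siRNAs in either fraction.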

How the data were processed

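Nuclear and cytoplasmic RNA of HEK293 cells was made into Lexogen SENSE mRNA libraries. The authors trimmed reads with cutadapt and quantified Ensembl transcripts of hg19 with salmon (version not given in the sources used here). They deposited, for each sample, an estimated count and a TPM value per transcript, without normalization between samples. Transcripts were matched to GENCODE 44 on GRCh37, the same build with a newer annotation: 183122 of 215170 transcripts (85.1%), holding 83.07% to 88.31% of the counts of a sample. Of them, 81.9% kept their length. Isoform classes are those of the newer annotation.

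The estimated counts of a gene's transcripts were added up and the sum was rounded. In 16181 genes with at least 10 counts in at least 3 samples, edgeR 4.0.16 (R 4.3.3; TMM; quasi-likelihood test) was fitted to 4 groups without a replicate block, with 5 residual degrees of freedom. The standard error is the fold change divided by the square root of F. Retained-intron to coding ratios were tested with limma 3.58.1 on log2 ratios of TPM with 0.5 TPM added. Single shares were compared by exact permutation. At these depths 3 counts equal 0.19 to 0.303 CPM, and such limits cover counting error only. The code was tested on simulated data. Members, lists and tests were chosen with earlier results of these data known. Apart from the members and siRNA targets, genes named were those of a list called in nuclei or in the ratio (at most 8 a list) and the 5 most like MAT2A. A few of these genes are not reported here. MMACHC, MMADHC, SLC38A2 and the fraction and HEK293 markers were named after their values were seen. Alternatives were DESeq2 1.42.0, other scalings, filters, a length offset, limma on log2(TPM + 1), a replicate block, an FDR of 0.05 and leaving out each sample. Intron reads, methylation sites and the other cytoplasmic samples were not analysed here.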

Additional observations from a re-analysis of the deposited data

Results flagged for a closer look

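In each of the following genes the RNAi effect in the nucleus differed from that in the cytoplasm, by the interaction term of the edgeR fit at an FDR under 0.1, and every value shares the single control cytoplasmic library. Values are nuclear minus cytoplasmic log2 fold changes. Over all genes 18.2% passed this FDR together with the fold threshold of 0.5 (10.4% higher and 7.87% lower). Among the members, MTR stood at 0.90 (FDR 0.0415) and AHCY at -0.50 (FDR 0.0577), the latter just under the fold threshold. Of the methionine cycle, CBS stood at -0.71. Among users of S-adenosylmethionine, PEMT stood at -0.74 and GAMT at -0.93, and of methionine salvage MTAP at 1.12. Among folate enzymes SHMT2 stood at -0.96 and ALDH1L1 at -2.23. ALDH1L1 was at only 0.365 CPM in the control cytoplasmic library, where 3 counts equal 0.19 CPM. NUDT21 stood at 0.53 and YTHDC1 at 0.58. Methionine transporters stood at -0.998 (SLC7A5), -0.94 (SLC3A2), -1.27 (SLC43A1), -1.31 (SLC43A2), -0.78 (SLC7A8) and -0.78 (SLC1A5). The siRNA target WTAP stood at 0.89.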

How the results depend on the processing

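Scaling by library size alone moved the median of all genes from 0.01 to -0.24 in cytoplasm, from -0.05 to 0.23 in the ratio and from 0.04 to 0.31 between nucleus and cytoplasm of RNAi cells. Of members called, 1 in nuclei became 0 with library size only, the length offset or limma on TPM (0 to 1 leaving out a sample), 1 in the ratio became 2 with the length offset (1 to 2 leaving out a sample), and 4 between fractions of RNAi cells became 2 with library size only. Member transcripts called in cytoplasm were 0 to 1 leaving out a sample, and 1 rather than 0 was called in the ratio with library size only. Values that changed sign were all uncalled. With the length offset METTL16, AHCY and AHCYL1 turned to -0.20, -0.021 and 0.15 in nuclei, AHCYL1 to 0.016 in cytoplasm and 0.13 in the ratio, and METTL16 to 0.40 between control fractions. In limma on TPM METTL16 and AHCYL1 turned to -0.11 and 0.21 in nuclei, MAT2A to -0.11 in cytoplasm, MAT2A and AHCYL1 to 0.30 and 0.46 in the ratio, and METTL16 to 0.15 and 0.45 between RNAi and control fractions. With library size only MAT2A turned to -0.10 in cytoplasm, and MAT2A and AHCYL1 to 0.26 and 0.14 in the ratio. MTR turned to -0.002 in nuclei without the filter. Leaving out 1 sample at a time, values ran across 0 from -0.067 to 0.139 for METTL16, -0.105 to 0.16 for MTR and -0.193 to 0.065 for ENST00000409017 in nuclei, from -0.236 to 0.024 for AHCYL1 in cytoplasm, from -0.041 to 0.022 for MAT2A and -0.238 to 0.028 for AHCYL1 in the ratio, and from -0.116 to 0.066 for METTL16 between control fractions. The causes were not tested.

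Deviations of same-numbered control and RNAi nuclear samples correlated with r of 0.176, 0.11 and 0.044, those of control nuclear and RNAi cytoplasmic samples with 0.173 and 0.174, and those of RNAi nuclear and cytoplasmic samples with 0.081 and 0.029. Among nuclear samples all but RNAi replicate 3 correlated best with their own number. The 2 RNAi cytoplasmic samples deviate from their mean by opposite amounts, so that values with them are not separate (0.173 and -0.173 for control nuclear replicate 1). Every same-numbered pair was above 0, and since not every pair was over 0.1, the numbers were not taken to pair samples. With a replicate block 1035 genes were called in nuclei and 4038 in the ratio, 0 member transcripts were called in cytoplasm and 7 between control fractions (13 without), and METTL16 between control fractions turned to 0.037. No other member call changed with the block.

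Genes called in nuclei were 792 of all tested, 490 with library size only, 440 with the length offset, 174 in limma on TPM, 390 at an FDR of 0.05, 1306 without the filter and 52 to 1071 leaving out a sample. In cytoplasm 3982 became 1495 in limma, and in the ratio 2953 became 1783 with the length offset, 1074 in limma, 1899 at an FDR of 0.05 and 1920 to 3438 leaving out a sample. The split was 1680 higher and 1273 lower in the ratio, against 2236 and 164 with library size only and 1044 and 30 in limma, and 1677 and 2305 in cytoplasm, against 431 and 3200 and 99 and 1396. Between fractions of RNAi cells it was 5316 and 4034, against 6456 and 2090 and 6117 and 1222. For the ratio contrast, no member call was lost under any alternative. Depth limits the cytoplasmic values of intron-containing MAT2A transcripts, with 2.1 to 6 counts for the retained-intron sum and 3.4 to 11.8 for ENST00000409017.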

Other observations

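Most of the listed transporters that bring methionine and other neutral amino acids into the cell were higher in cytoplasm after RNAi. Of 7 tested, 6 were called higher in RNAi cytoplasm and SLC38A2 lower, beside 10.4% higher and 14.2% lower over all genes. In the ratio 6 of 7 were called lower, beside 7.87% of all genes (list median log2 -0.94, all genes -0.05). With library size alone 4 of 7 were called higher in cytoplasm and 3 lower in the ratio, and in limma on TPM 1 and 0 (3 at an unadjusted p under 0.05). SLC7A5, the light chain of the main transporter, was at 727 CPM in control cytoplasm and at 1368 to 1594 CPM in RNAi cytoplasm (log2 1.03, SE 0.17, edgeR FDR 0.00404). SLC3A2, its heavy chain, was at 64.4 CPM and at 108 to 128 CPM (log2 0.87, edgeR FDR 0.00429). In nuclei 0 of 7 were called in edgeR, beside 4.89% of all genes, and 0 in DESeq2 or limma. In edgeR 1 of 7 had an unadjusted p under 0.05 in nuclei. There SLC7A5 averaged 1212 CPM ± 159 (SD, n = 3) in controls and 1236 CPM ± 42.6 (SD, n = 3) after RNAi. In control cells all 7 were called higher in nuclei than in cytoplasm in edgeR, beside 28% of all genes. These values rest on the 1 control cytoplasmic library, in which the summed nuclear RNAs were at 4.6 TPM against 1.9 and 2.1 TPM in RNAi cytoplasm.

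Of genes that use or carry S-adenosylmethionine, 10 of 13 were tested. GAMT, which makes creatine, was the only 1 of 10 called in nuclei, lower (log2 -0.93, edgeR FDR 0.00979), beside 4.89% of all genes. GAMT and PEMT were lower in the ratio, beside 7.87% of all genes. Both ratio calls were lost with library size alone and in limma on TPM. Of 10 polyamine and methionine salvage genes 0 were called in nuclei in edgeR, beside 4.89% of all genes, and 0 in DESeq2 or limma. In edgeR 3 of the 10 had an unadjusted p under 0.05 there. MTAP, which opens the salvage of methionine, was higher in the ratio in edgeR (1.12, FDR 0.0817), beside 10.4% of all genes. This call was lost in DESeq2, in limma on TPM and with the length offset. Of 13 folate genes MTHFD2L alone was called in nuclei, higher (0.54, edgeR FDR 0.0833), beside 4.89% of all genes. MTHFD2L was not called there in DESeq2, in limma on TPM, with library size alone or with the length offset. SHMT2 and ALDH1L1 were lower in the ratio, beside 7.87% of all genes. ALDH1L1 was called there in neither DESeq2 nor limma, nor with library size alone or the length offset, and SHMT2 was not called in limma. The control cytoplasmic library held only 0.365 CPM of ALDH1L1.

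The genes whose log2 CPM over the 9 samples was most like that of MAT2A, among 8273 genes with a mean of at least 10 CPM, were VAMP1 (Pearson r 0.953), LINC02593 (0.951), ENSG00000291078 (0.946), ATG4B (0.946) and DPP7 (0.944). The 9 samples fall into 2 fractions, which all these genes share, and the values are a description.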
